A study of Mus musculus with 6 samples.

Results

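The genes described here are 43 genes of the extracellular matrix and of transforming growth factor beta (TGF-beta) and bone morphogenetic protein (BMP) signalling. They were taken by symbol, and all 43 were found among the 22206 transcript clusters tested (a transcript cluster is the array's unit of measurement, close to a gene), with 1 cluster for each of them. They fall into 13 genes of the fibrillar and interstitial matrix, 12 of the basement membrane, 13 of TGF-beta signalling, 3 matrix metalloproteinases and 2 BMP genes. Signals were measured in tubular epithelial cells that had been freed from mouse kidneys with collagenase, on 6 arrays with 1 sample each. All kidneys had undergone ischemia for 30 min, and reperfusion lasted 24 h. The vehicle arm (3 arrays) and the PT2385 arm (3 arrays) differ by a HIF-2α inhibitor given at 10 mg/kg, once 16 h before surgery and then 1, 8 and 20 h after it. The labels write the injected compound as PT2384, and the arms were read from sample names with and without PT. No strain, age or sex is given, uninjured kidneys were not analysed here, and the drug was given to the whole animal, so the comparison is between treatment arms after injury and not within tubule cells alone.

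The matrix of the kidney takes an interstitial and a basement membrane form. Fibrillar collagens I and III, with collagen VI, fibronectin and small proteoglycans, fill the interstitium and are made mostly by fibroblasts, while collagen IV, laminins, nidogen and perlecan build the basement membrane on which tubule cells sit. TGF-beta is secreted in a latent form that integrins and thrombospondin can release. The free ligand brings its receptors together, the receptors phosphorylate SMAD proteins, and these switch on matrix genes as well as the pathway's own brakes. BMP ligands use related receptors and other SMADs and are known to oppose TGF-beta in the injured tubule, and secreted antagonists such as chordin-like proteins bind them.

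The arrays were close to a common scale, with medians of 6.20 to 6.25 over the tested clusters. The arms also differed in measures that stand beside every result below. The 3 measured Y-linked genes were lower in the PT2385 arm in every array, with a mean log2 signal of 8.07 to 8.15 against 3.04 to 3.29. Each was above the median of the negative control rows in 3 vehicle arrays and in 0 PT2385 arrays. Sex, if it differed between the animals of the arms, and PT2385 therefore cannot be told apart in any result here. Of the labelled tubular cells, the 10 proximal tubule markers were bright (mean log2 signal 10.72 to 11.06 in the vehicle arm, against 10.35 to 11.32 in the PT2385 arm). Their differences were positive for 4 and negative for 6. Among them Slc22a6 alone passed the limma threshold given below, and it fell by 0.97 on the log2 scale (adjusted p = 0.00572). All 11 markers of thick ascending limb and distal tubule cells were higher in the PT2385 arm without overlap (means of 9.39 to 10.42 against 8.65 to 8.78). Of these, Cldn19 (1.24, adjusted p = 0.0259) and Ppp1r1a (1.14, adjusted p = 0.0276) passed that threshold and 9 did not. The 12 collecting duct markers had means of 8.63 to 8.89 against 8.20 to 8.30. All 12 had a positive difference, the PT2385 arm lay above without overlap for 10, and 0 passed the threshold. Over all clusters the PT2385 arm lay above without overlap for 11.6%. Markers of other cells were present as well. The 10 fibroblast and pericyte markers had means of 5.94 to 6.14 in the vehicle arm, against 6.10 to 6.27 in the PT2385 arm, and the 10 endothelial markers had 7.64 to 8.03 and 7.83 to 8.04. The 10 macrophage and monocyte markers had means of 6.48 to 6.94 and 6.36 to 6.41. Of these markers 4 had a positive and 6 a negative difference, with a median of -0.07. The arms were apart for 2 of the 10, Itgam (-0.95, adjusted p = 0.0974) and Ccr2 (-1.15, adjusted p = 0.127), beside 20.7% of all clusters. The 5 neutrophil markers had means of 5.99 to 6.26 and 4.81 to 5.79, and 1 of them, Csf3r, fell by 1.04 on the log2 scale (adjusted p = 0.0326). The part of these cells in the results below was not tested. In such mixed isolates fewer cells of a type and less RNA per cell cannot be told apart.

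Of the 43 genes, 2 passed the threshold and both were higher in the PT2385 arm, Fn1 and Chrdl1. The other 41 did not pass. The threshold was an adjusted p under 0.05 in limma, a linear model fitted to each of the 22206 clusters. In limma each cluster's own variance is drawn toward a value common to all clusters. That threshold was passed by 0.829% of all clusters, 0.333% of them higher and 0.495% lower, and by 4.65% of the 43 genes. The 43 genes were chosen with earlier results of these data known, so these shares are not an independent comparison. The arms did not overlap for 7 of the 43 genes, 5 above and 2 below, which is 16.3% beside 20.7% of all clusters (11.6% above and 9.13% below), so separation of the arms was not more frequent here than over the array. An unadjusted p under 0.05 was reached by 7 of the 43 genes, beside 14.5% of all clusters. For 33 of the 43 the difference was smaller than 0.2 on the log2 scale, with a median SE of 0.16.

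**Figure D1:**
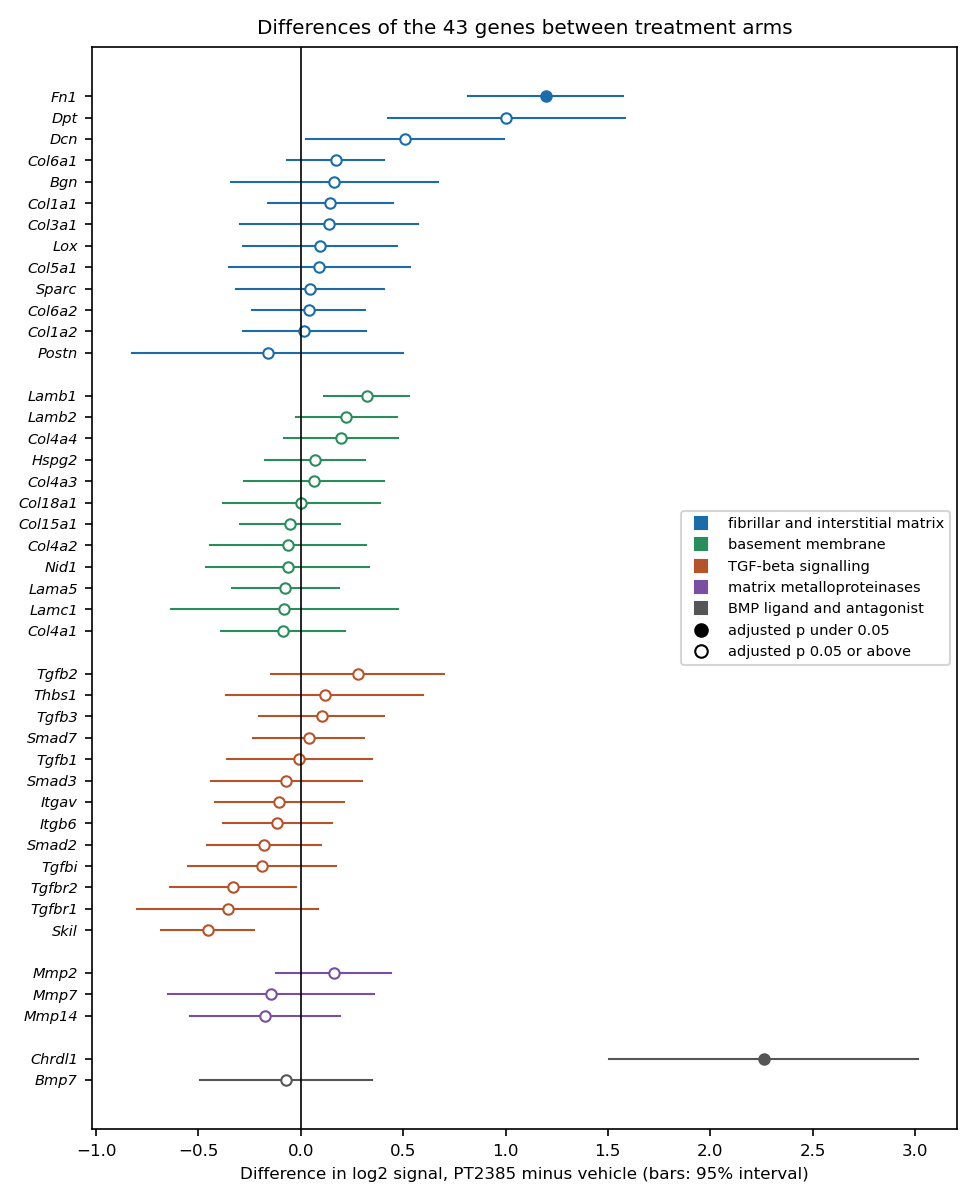
Difference in log2 signal, PT2385 minus vehicle, for each of the 43 genes, with its 95% interval from limma (3 arrays per arm), coloured by group. Filled points, Fn1 and Chrdl1, passed an adjusted p under 0.05, and most other points lie within 0.2 of the line at 0.

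**Figure D2:**
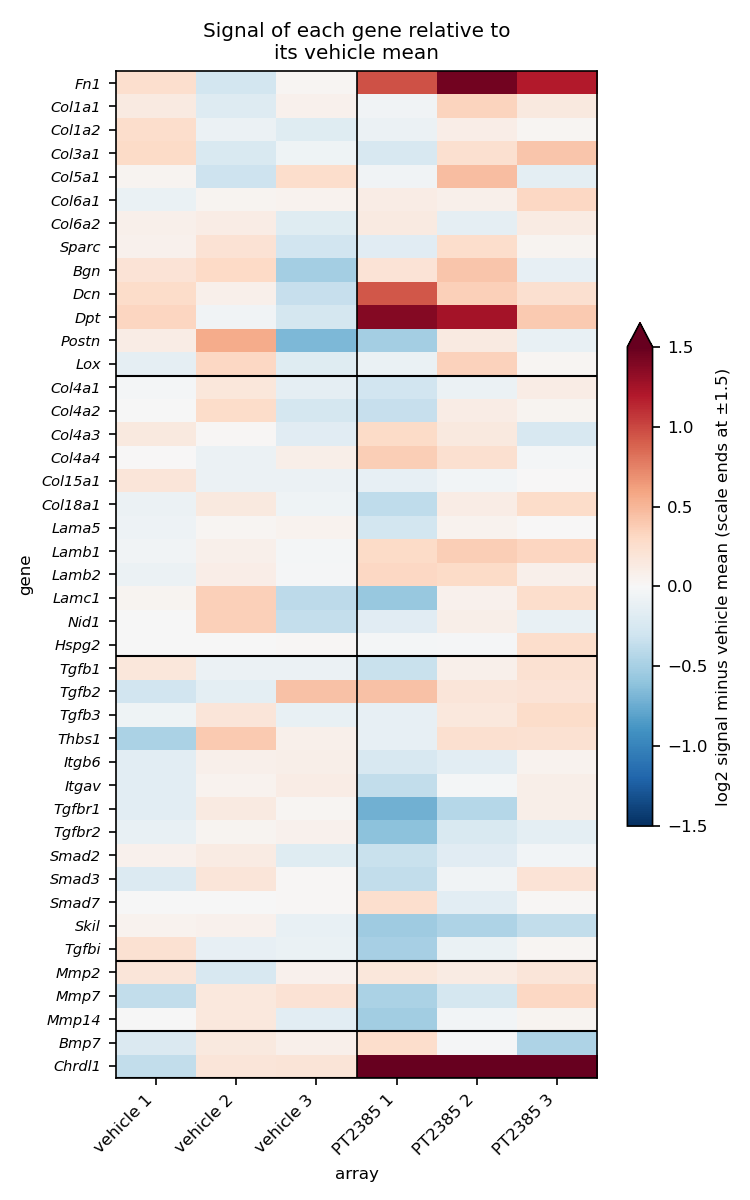
Log2 signal of each gene in each of the 6 arrays minus its vehicle mean, with horizontal lines between the fibrillar and interstitial matrix, basement membrane, TGF-beta signalling, metalloproteinase and BMP genes. Fn1 and Chrdl1 are raised in all 3 PT2385 arrays (Chrdl1 beyond the end of the scale at 1.5 in every one, and Fn1 just short of it in PT2385 replicate 2), and Skil is lowered in all 3.

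Of the 13 interstitial matrix genes Fn1 alone passed the threshold. Fn1, on chromosome 1, encodes fibronectin, a glycoprotein that links cells to collagen and that tubule cells themselves can make. Its log2 signal was 8.42, 7.90 and 8.20 in the vehicle arm, against 9.13, 9.62 and 9.36 in the PT2385 arm. The lowest PT2385 array lay above the highest vehicle array. The means were 8.17 ± 0.26 and 9.37 ± 0.25 (SD, n = 3 each), and Fn1 rose by 1.20 (SE 0.17, limma adjusted p = 0.0208), a 2.29-fold difference. The call was lost without vehicle replicate 2 (adjusted p = 0.0740), vehicle replicate 3 (adjusted p = 0.0816) or PT2385 replicate 2 (adjusted p = 0.109), while the difference stayed between 1.06 and 1.32 over all 16 alternative settings.

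None of the 6 interstitial collagen genes passed (0 with an unadjusted p under 0.05 in limma). Col1a1, a chain of collagen I, had log2 signals of 8.32, 7.99 and 8.25 in the vehicle arm, against 8.14, 8.52 and 8.33 in the PT2385 arm. The arms overlapped, with a difference of 0.14 (SE 0.13, adjusted p = 0.656) and a 95% interval from -0.16 to 0.45, so a rise in Col1a1 of the size seen in Fn1 lies outside the interval. Col6a1, a chain of the microfibrillar collagen VI, had 6.75, 6.88 and 6.90 against 6.96, 6.93 and 7.16. Its arms did not overlap, but the gap was narrow and the difference of 0.17 (SE 0.10, adjusted p = 0.491) did not pass. The other 4 had differences of 0.02 (Col1a2, the partner chain of collagen I), 0.14 (Col3a1, collagen III), 0.09 (Col5a1, collagen V, which starts fibrils) and 0.04 (Col6a2, collagen VI). Over the 6 genes the 95% intervals ran from -0.35 at the lowest to 0.57 at the highest.

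The proteoglycan Dcn and the matrix protein Dpt had the next largest differences of this group. Dpt encodes dermatopontin, which binds decorin and promotes collagen fibril assembly. Its log2 signal was 5.62, 5.24 and 5.03 in the vehicle arm, against 6.67, 6.54 and 5.69 in the PT2385 arm. The arms came close without overlapping, since PT2385 replicate 3 lay just above vehicle replicate 1. The difference was 1.00 (SE 0.25, adjusted p = 0.143), and Dpt passed without PT2385 replicate 3, with a difference of 1.31 and adjusted p = 0.0205. Dcn encodes decorin, a proteoglycan on collagen fibrils that also binds TGF-beta. It had 8.51, 8.31 and 7.89 against 9.17, 8.59 and 8.47, with PT2385 replicate 3 below vehicle replicate 1. Its difference was 0.51 (SE 0.21, adjusted p = 0.325), with values from 0.30 to 0.65 over the alternative settings. Both have long been used as fibroblast genes. Of the 10 fibroblast and pericyte markers listed apart from them 9 had a positive difference, beside 53.5% of all clusters. The median of the 10 was 0.08 and 0 passed the threshold. The arms were apart for 1 of them, Lum, beside 20.7% of all clusters, and Lum was under the negative control median in all 6 arrays. Of the 6 smooth muscle and myofibroblast markers 2 had a positive and 4 a negative difference, with a median of -0.02 and 0 past the threshold. The part of these cells in the differences of Dpt and Dcn was not tested.

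The remaining interstitial genes lay near 0. Sparc, a collagen-binding matricellular protein gene, differed by 0.04, Bgn, which encodes the proteoglycan biglycan, by 0.16, and Lox, the enzyme gene for collagen crosslinking, by 0.09. Postn, the periostin gene, was the only one of the 13 with a negative difference (-0.16, SE 0.29), and it also had the widest interval of the group, from -0.83 to 0.50. Its signal ranged from 5.74 to 6.96 in the vehicle arrays alone. The median over the 13 genes was 0.14 (0.047 without PT2385 replicate 2), beside 0.02 over all clusters, and 12 of 13 lay above 0, beside 53.5% of all clusters. With each array centred on its median the median of the 13 was 0.09 and that of all clusters -0.03, and the small differences of Col1a2, Col6a2 and Sparc turned negative. That of Col6a2 was also negative after quantile normalization, after cyclic loess and with array weights.

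**Figure D3:**
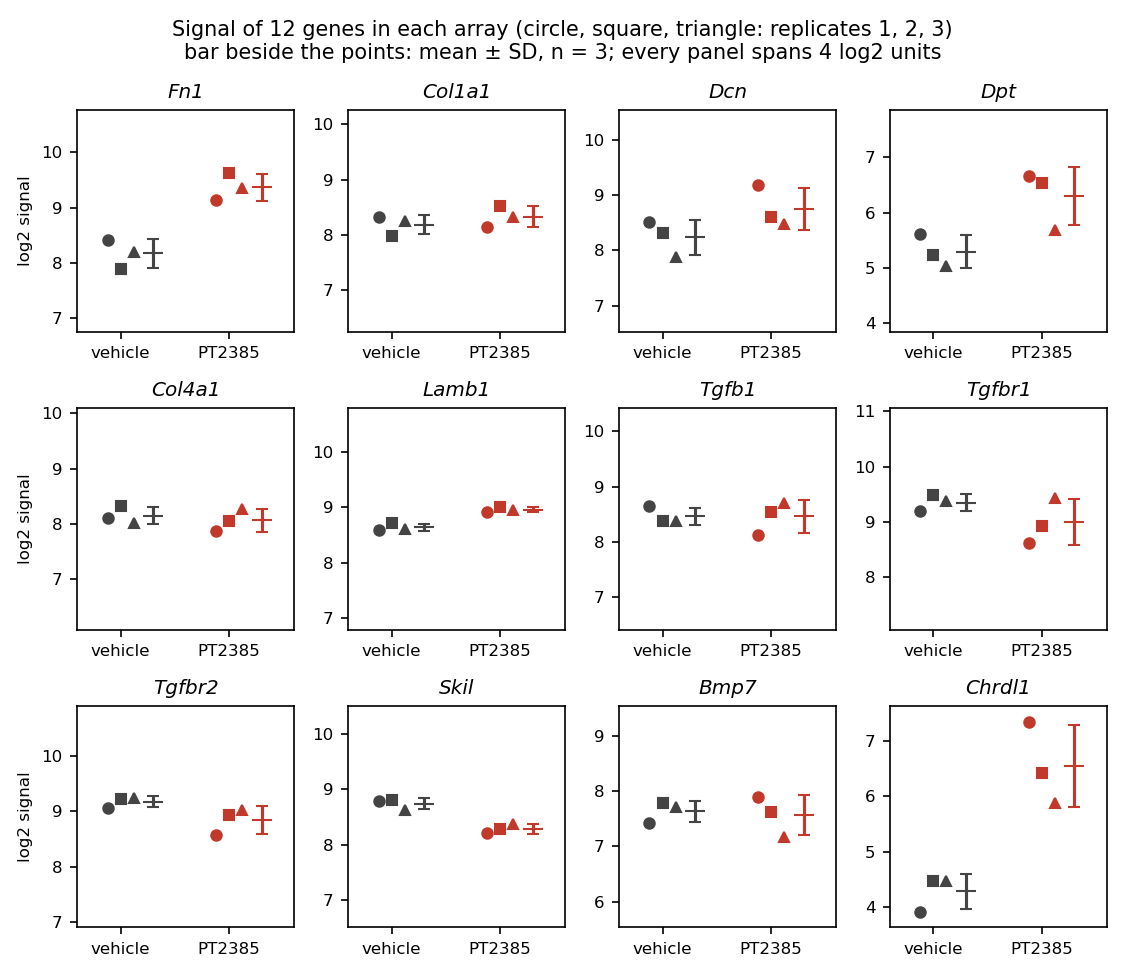
Log2 signal of 12 of the genes in each array, with circles, squares and triangles for replicates 1, 2 and 3 and a bar at the mean ± SD (n = 3) beside each arm, every panel spanning the same range of log2 units. The arms are apart for Fn1, Dpt, Lamb1, Tgfbr2, Skil and Chrdl1 and overlap for Col1a1, Dcn, Col4a1, Tgfb1, Tgfbr1 and Bmp7.

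Basement membrane genes showed no difference past the threshold in limma, 0 of 12 in either direction, with 1 (Lamb1) at an unadjusted p under 0.05. The most common collagen IV network contains the products of Col4a1 and Col4a2, a gene pair that lies head to head on chromosome 8 with opposite strands. Their promoter windows are shown because both genes are read from the same short stretch of DNA and their signals can be set beside each other. The RefSeq table (GRCm38.p6) places the Col4a1 window at chr8:11312777-11313076 on the minus strand and the Col4a2 window at chr8:11312555-11312854 on the plus strand, each with 250 bases before the start and 50 after it. The start sites are 21 bases apart. Each window is written 5′ to 3′ on its own gene's strand, and capitals mark the 78 bases that both windows hold, which are reverse complements of each other.
Col4a1: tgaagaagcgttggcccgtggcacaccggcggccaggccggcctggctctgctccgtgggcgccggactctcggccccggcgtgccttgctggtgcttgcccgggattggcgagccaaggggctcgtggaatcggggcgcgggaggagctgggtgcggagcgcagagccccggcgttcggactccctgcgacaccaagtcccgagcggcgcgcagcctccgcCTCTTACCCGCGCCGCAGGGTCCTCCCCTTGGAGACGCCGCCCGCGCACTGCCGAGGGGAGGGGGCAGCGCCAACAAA
Col4a2: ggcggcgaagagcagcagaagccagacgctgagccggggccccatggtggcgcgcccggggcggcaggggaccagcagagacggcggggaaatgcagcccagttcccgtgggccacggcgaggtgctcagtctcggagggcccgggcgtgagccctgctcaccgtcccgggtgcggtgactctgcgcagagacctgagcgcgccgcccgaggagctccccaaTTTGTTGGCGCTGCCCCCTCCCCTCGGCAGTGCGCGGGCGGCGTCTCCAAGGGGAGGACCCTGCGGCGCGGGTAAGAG
The GC box letters GGGCGG, searched on both strands, occur 1 time in the Col4a1 window and 3 times in the Col4a2 window, 1 of them in the shared bases. They are found in 35.7% of all 32851 promoter windows and in 18 of the 35 windows of the 29 genes matched in the table used here. The letters CAGAC, the core that SMAD proteins recognise, were also searched on both strands. They occur 0 times in the Col4a1 window and 1 time in the Col4a2 window, and in 49.6% of all windows and 19 of those 35. These matches are descriptions of the letters and do not show binding.

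The signals of this gene pair did not differ between arms beyond their spread. Col4a1 had log2 signals of 8.12, 8.32 and 8.02 in the vehicle arm, against 7.87, 8.06 and 8.27 in the PT2385 arm. Col4a2 had 8.50, 8.78 and 8.24 against 8.17, 8.61 and 8.55. For both genes the highest was vehicle replicate 2 and the lowest PT2385 replicate 1. This was not particular to the pair, since it also held for Lamc1, Tgfbr1 and Mmp14 on chromosomes 1, 4 and 14. The differences of Col4a1 and Col4a2 were -0.09 (SE 0.13, adjusted p = 0.797) and -0.06 (SE 0.17, adjusted p = 0.895). Their 95% intervals ran from -0.39 to 0.21 and from -0.44 to 0.32. Col4a3 and Col4a4 encode chains of the other collagen IV network, best known from the glomerulus and also found in distal tubules. Col4a4 had 8.47, 8.38 and 8.55 against 8.84, 8.71 and 8.44, with PT2385 replicate 3 inside the vehicle range and a difference of 0.20 (SE 0.12, adjusted p = 0.499). Col4a3 differed by 0.07 (SE 0.15). The 6 measured podocyte markers, which would follow glomerular content, had means of 7.68 to 7.73 in the vehicle arm, against 7.66 to 7.75 in the PT2385 arm.

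The laminin beta chains had the smallest p-values of the basement membrane group. Lamb1, the beta chain gene of laminins found widely in developing and injured tissue, had 8.58, 8.72 and 8.61 in the vehicle arm, against 8.92, 9.0 and 8.96 in the PT2385 arm. The arms were apart and each was tight, but the difference of 0.32 (SE 0.09, adjusted p = 0.183) was too small to pass over all clusters. Lamb2, the beta chain gene of mature glomerular and vascular laminins, had 7.02, 7.21 and 7.10 against 7.42, 7.40 and 7.18. Its PT2385 replicate 3 fell inside the vehicle range, and the difference was 0.22 (SE 0.11, adjusted p = 0.385). The laminin alpha chain gene Lama5 (-0.07) and gamma chain gene Lamc1 (-0.08) lay slightly below 0, with SEs of 0.11 and 0.24.

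Genes of basement membrane linkers and proteoglycans lay near 0. Hspg2, which encodes perlecan, had 7.12, 7.12 and 7.14 in the vehicle arm, against 7.09, 7.11 and 7.39 in the PT2385 arm, where only replicate 3 departed from the rest. Its difference was 0.07 (SE 0.11, adjusted p = 0.794). Nid1, the gene of nidogen, which joins laminin to collagen IV, differed by -0.06. Col15a1 and Col18a1, whose products carry the antiangiogenic fragments restin and endostatin, differed by -0.05 and 0.00. The median over the 12 genes was -0.02, with 6 positive and 6 negative, and the widest 95% interval, that of Lamc1, ran from -0.63 to 0.47.

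No gene of TGF-beta signalling passed the threshold in limma, 0 of 13 in either direction, and 2 (Skil and Tgfbr2) had an unadjusted p under 0.05. The ligand genes did not differ beyond their spread. Tgfb1, the isoform gene most tied to fibrosis, had log2 signals of 8.65, 8.38 and 8.38 in the vehicle arm, against 8.14, 8.55 and 8.70 in the PT2385 arm. Replicate 1 was the highest vehicle array and the lowest PT2385 array, and the difference was -0.01 (SE 0.16, adjusted p = 0.988, 95% interval -0.36 to 0.35), of the opposite sign after quantile normalization, after cyclic loess and with array weights. Tgfb2 had 4.87, 5.01 and 5.60 against 5.61, 5.35 and 5.37. Only vehicle replicates 1 and 2 lay below the PT2385 arrays, with a difference of 0.28 (SE 0.19, adjusted p = 0.526). Tgfb3 differed by 0.10 (SE 0.13). The activator genes did not differ beyond their spread either. Thbs1, the gene of thrombospondin, which releases the latent ligand, differed by 0.12 (SE 0.21, 95% interval -0.36 to 0.60). Itgb6 and Itgav, whose products pair as an epithelial integrin that does the same, differed by -0.12 (SE 0.12) and -0.10 (SE 0.14).

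The receptor genes and the gene of a SMAD corepressor had the most negative differences of the group, none past the threshold. Tgfbr2, the ligand-binding receptor gene, had 9.07, 9.22 and 9.24 in the vehicle arm, against 8.56, 8.94 and 9.03 in the PT2385 arm. The arms were apart by a narrow margin, and the difference was -0.33 (SE 0.14, adjusted p = 0.315). Tgfbr1, the signalling receptor gene, had 9.19, 9.49 and 9.38 against 8.62, 8.92 and 9.44. PT2385 replicate 3 lay within the vehicle range, and the difference was -0.36 (SE 0.19, adjusted p = 0.436), with values from -0.58 to -0.17 over the alternative settings. For both receptors PT2385 replicate 1 was the lowest of the 6 arrays. Skil encodes SnoN, a repressor of SMAD complexes that TGF-beta itself induces. It had 8.79, 8.81 and 8.63 against 8.21, 8.29 and 8.38, with every PT2385 array below every vehicle array. Its difference of -0.45 (SE 0.10, adjusted p = 0.0974) missed the threshold, and it passed with array weights (adjusted p = 0.0416).

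The SMAD genes and the target gene showed less. The receptor-activated SMAD genes Smad2 and Smad3 differed by -0.18 (SE 0.12) and -0.07 (SE 0.16). Smad7, the inhibitory SMAD gene that the pathway induces, differed by 0.04 (SE 0.12), and its vehicle arrays agreed closely at 5.88, 5.88 and 5.90. Tgfbi, the gene of a secreted matrix protein named for its induction by TGF-beta, differed by -0.19 (SE 0.16). The median over the 13 genes was -0.10, with 4 positive and 9 negative. It was -0.05 after quantile normalization and after cyclic loess, -0.15 with arrays centred on their median, -0.039 without PT2385 replicate 1 and -0.20 without PT2385 replicate 3.

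The 3 matrix metalloproteinase genes did not differ beyond their spread, with 0 past the threshold and 0 at an unadjusted p under 0.05 in limma. Mmp2, a gelatinase gene, had 5.92, 5.49 and 5.79 in the vehicle arm, against 5.90, 5.86 and 5.92 in the PT2385 arm, with a difference of 0.16 (SE 0.12, adjusted p = 0.583). Mmp14, whose membrane-bound product activates the Mmp2 protein, had 6.51, 6.67 and 6.35 against 5.99, 6.47 and 6.55, where only PT2385 replicate 1 was outside the vehicle range, and a difference of -0.17 (SE 0.16, adjusted p = 0.649). Mmp7, matrilysin, is known from injured and fibrotic tubules. It had 3.99, 4.51 and 4.57 against 3.88, 4.09 and 4.66, a difference of -0.15 (SE 0.22, adjusted p = 0.798). Its signal was above the array's own negative control median in 2 vehicle arrays and 1 PT2385 array, so a difference in Mmp7 could be missed.

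The BMP antagonist gene Chrdl1 showed the largest difference of the 43 genes, while the ligand gene Bmp7 did not differ beyond its spread. Chrdl1, on the X chromosome, encodes chordin-like 1, a secreted protein that binds BMP ligands. Its log2 signal was 3.92, 4.46 and 4.47 in the vehicle arm, against 7.34, 6.41 and 5.88 in the PT2385 arm. The arms were far apart, and the PT2385 arrays were also widely spread. The means were 4.28 ± 0.32 and 6.54 ± 0.74 (SD, n = 3 each), and Chrdl1 rose by 2.26 (SE 0.33, limma adjusted p = 0.0256). The vehicle signals were at the level of the negative controls, whose medians in vehicle replicates 1, 2 and 3 were 4.47, 4.43 and 4.37. Replicate 1 lay under its median and the others just above theirs, so the fold is given as a lower bound, at least 4.22-fold higher with replicate 1 set to its median. The call was lost without vehicle replicate 1 (adjusted p = 0.0994), 2 (adjusted p = 0.0958) or 3 (adjusted p = 0.0843) or PT2385 replicate 2 (adjusted p = 0.133), with differences of 1.86 to 2.59 over the 15 settings that tested it. PT2385 replicates 1, 2 and 3 stood in the same order, from high to low, for Chrdl1 and for the marker means of loop and distal cells (10.42, 9.83 and 9.39), of proximal tubule (11.32, 10.81 and 10.35) and of collecting duct (8.89, 8.76 and 8.63). The marker means of fibroblasts and pericytes (6.27, 6.22 and 6.10) and the signals of Dcn and Dpt stood in that order too. The marker means of smooth muscle and myofibroblasts, endothelium, podocytes, macrophages and monocytes, and neutrophils did not. The part of these cells in the result was not tested.

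Bmp7 is made by tubule cells, mainly of the distal nephron and collecting duct, and is known as a protective factor in kidney injury. It had 7.42, 7.78 and 7.71 in the vehicle arm, against 7.90, 7.63 and 7.17 in the PT2385 arm. PT2385 replicate 1 was the highest of all arrays and PT2385 replicate 3 the lowest. The difference was -0.07 (SE 0.18, adjusted p = 0.891), with a 95% interval from -0.49 to 0.35.

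Among 29 other measured BMP genes, Sostdc1 rose and Id3 fell, and 27 did not pass. Sostdc1 encodes a secreted antagonist of BMP and Wnt ligands that is made in the distal nephron. Its log2 signal was 8.21, 8.31 and 8.51 in the vehicle arm, against 10.51, 10.04 and 9.35 in the PT2385 arm. PT2385 replicate 1 was the highest array, as for Chrdl1 and the means of the 3 tubular marker lists and of the fibroblast and pericyte list. Every PT2385 array lay above every vehicle array. Sostdc1 rose by 1.62 (SE 0.25, adjusted p = 0.0325), and the part of those cells in it was not tested either. Id3 encodes an inhibitor of helix-loop-helix factors and is a classic BMP target. It had 7.45, 7.86 and 7.55 against 6.80, 6.43 and 6.75, again without overlap, and fell by 0.96 on the log2 scale (SE 0.14, adjusted p = 0.0276). Both calls were lost without any 1 of the vehicle arrays or without PT2385 replicate 2, with adjusted p up to 0.175 for Sostdc1 and 0.137 for Id3. Of the other Id genes, Id1 (-0.65) and Id2 (-0.20) had negative differences and Id4 (0.54) a positive one, none past the threshold. The median over the 29 genes was 0.07, with 19 positive and 10 negative. An unadjusted p under 0.05 in limma was reached by 9 of them, 4 higher and 5 lower.

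Over all 6 lists of other genes of the same pathways, 142 of 154 listed genes were measured and 4 passed, Sostdc1 and Id3 among them, beside 0.829% of all clusters. These lists were also chosen with earlier results of these data known, so such shares are not an independent comparison. An unadjusted p under 0.05 was reached by 9 of 29 other BMP genes, 9 of 26 other fibrillar and interstitial matrix genes (all 9 higher), 6 of 22 other basement membrane genes, 7 of 29 other TGF-beta and activin genes, 1 of 14 collagen-processing and crosslinking enzymes and 6 of 22 other matrix proteases and inhibitors, beside 14.5% of all clusters. Of 26 other fibrillar and interstitial matrix genes 22 were above 0 and 1 passed, and the median was 0.15. This was Pcolce, which encodes an enhancer of the enzyme that trims procollagen, with 7.67, 7.82 and 7.85 against 8.61, 8.50 and 8.30 and a rise of 0.69 (SE 0.11, adjusted p = 0.0383). Of 22 other basement membrane genes 1 passed and the median was 0.02. Lama3, an epithelial laminin alpha chain gene, had 7.73, 7.60 and 7.69 against 7.18, 6.90 and 7.03 and fell by 0.64 on the log2 scale (SE 0.11, adjusted p = 0.0391). The arms did not overlap for Lama3, nor for Pcolce. Both calls were lost without any 1 of the vehicle arrays or without PT2385 replicate 2, that of Pcolce also without PT2385 replicate 1 and that of Lama3 also without PT2385 replicate 3. Adjusted p reached 0.198 for each.

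In the 3 remaining lists, whose counts at an unadjusted p under 0.05 were 7, 1 and 6, 0 genes passed in limma. Of 29 other TGF-beta and activin genes the smallest p-values belonged to Fst, the gene of the activin antagonist follistatin (0.70, SE 0.17, adjusted p = 0.131), and Bambi, a decoy receptor gene (0.41, SE 0.11, adjusted p = 0.152), and the median was -0.01. Of 14 collagen-processing and crosslinking enzymes they belonged to the prolyl hydroxylase gene P4ha3 (0.40, adjusted p = 0.119) and the transglutaminase gene Tgm2 (-0.28, adjusted p = 0.454), with a median of 0.05. Of 22 other matrix proteases and inhibitors they belonged to the gelatinase gene Mmp9 (-0.64, SE 0.12, adjusted p = 0.0575) and to Mmp11 (0.60, SE 0.14, adjusted p = 0.114). Mmp9 was above the negative control median in 1 of 3 PT2385 arrays, so its size there is only a bound. The Mmp9 protein is a well-known neutrophil product, and the neutrophil markers had the lower means in the PT2385 arm given above. Their part in the Mmp9 difference was not tested.

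**Figure D4:**
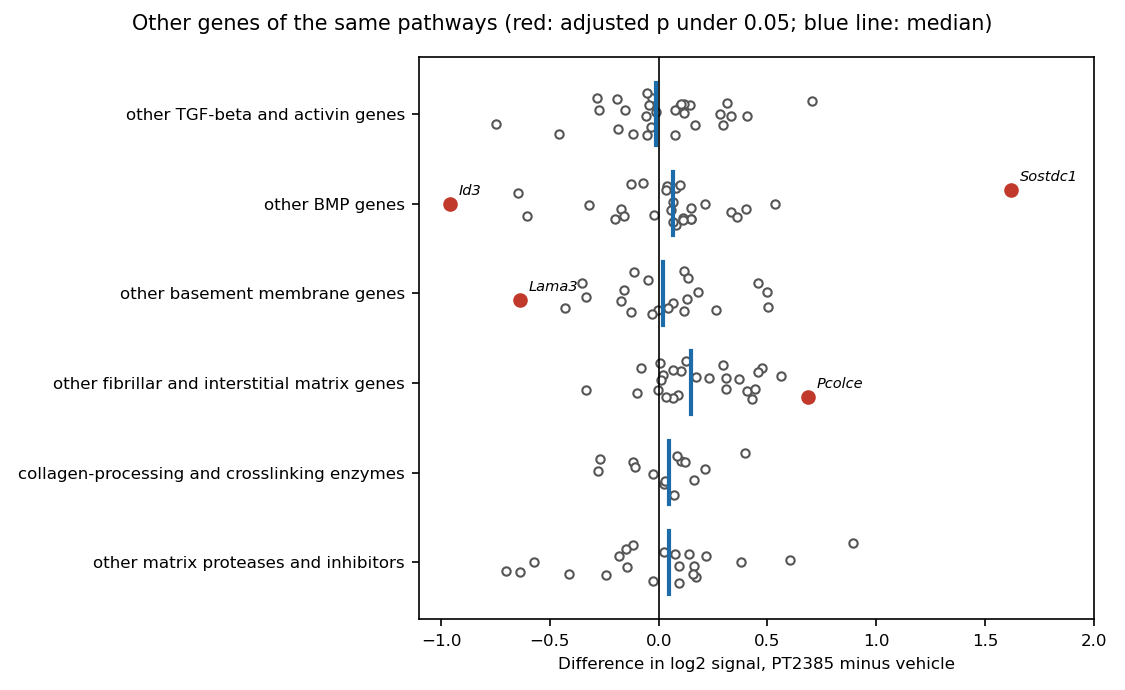
Difference in log2 signal, PT2385 minus vehicle, for the 142 other genes of the same pathways in 6 lists (1 point per gene, scattered vertically for legibility, blue line at the median). The 4 red points passed an adjusted p under 0.05, and the median lines lie between -0.01 and 0.15.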

How the data were processed

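The deposited log2 signals, 1 per transcript cluster and array, were used as the authors gave them. Per the submitters' processing notes they come from Transcriptome Analysis Console, and how background, normalization and summarisation were handled, and on which genome build, is not given in the sources used here. Of 28846 rows, 6640 control rows were left out and 22206 clusters tested, dim ones included. Arms were compared by lmFit and eBayes of limma 3.58.1 under R 4.3.3 (treatment as the only term, 2-sided, Benjamini-Hochberg over all clusters, threshold 0.05), and the fit was tested on simulated data. Chromosomes were read from cluster identifiers. Separate animals are not named as the source of the replicates, and p-values therefore reflect the spread among these samples alone, part of which may be technical. The median of 5222 negative control rows (at most 4.47) marks dim signals, and the number of arrays limits the precision. Replicate numbers did not pair the arrays, as the closing section shows.

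The 43 genes and all lists were chosen with earlier results of these data known. Every gene is named, and array values are given for those past the threshold, the 4 of each group with the smallest p-values, and Fn1, Col1a1, Col4a1, Tgfb1 and Bmp7. Col4a2 was added for its promoter after its values were seen. From each other list the genes past the threshold are named, or the 2 with the smallest p-values. Id1, Id2 and Id4 were added beside Id3 after their values were seen. Promoter windows came from a table made from RefSeq (GRCm38.p6), and 29 of the 43 genes were matched in the table used here.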

Additional observations from a re-analysis of the deposited data

How the results depend on the processing

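Over the 16 alternative settings, 19 of the 43 genes kept the sign of their difference in every setting that tested them, Fn1, Chrdl1, Dpt, Dcn, Lamb1, Tgfbr1, Tgfbr2 and Skil among them, and 24 did not. The cause of these changes was not tested. The count of clusters past the threshold was 184, 456 with array weights and 42 to 179 with 1 array left out. The split was 74 higher and 110 lower, and 57 and 135 with arrays centred on their median. The count among the 43 genes was 2, 1 without the X and Y chromosomes, where Chrdl1 was not tested, and 0 to 3 with 1 array left out (0 when the array left out was PT2385 replicate 2 or vehicle replicate 2 or 3). The count over the other lists was 4, 9 with array weights and 0 to 4 with 1 array left out (0 without any vehicle array or without PT2385 replicate 2).

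Deviations of same-numbered arrays from their arm means correlated at 0.14, 0.03 and -0.06, and 1 of 3 vehicle arrays correlated best with its own number, so the numbers were not taken as pairs. With the replicate number as a block 178 clusters, 3 of the 43 genes (Dpt added, adjusted p = 0.0258) and 2 of the other lists' genes passed, with Lama3 (adjusted p = 0.0515) and Pcolce (adjusted p = 0.0700) lost.

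The basement membrane median was -0.025. It was 0.018 after quantile normalization, 0.020 after cyclic loess, 0.030 with array weights and -0.061 to 0.092 with 1 array left out. With 1 array left out the fibrillar and interstitial median ran from 0.047 to 0.19 and the TGF-beta median from -0.20 to -0.039. The metalloproteinase median was -0.15, and 0.020 without PT2385 replicate 1. The median of Bmp7 and Chrdl1 was 1.09, and -0.072 without the X and Y chromosomes, when it is Bmp7 alone. The signs of small differences turned as follows. With arrays centred on their median the differences were -0.029 for Col1a2, -0.0070 for Col6a2, -0.0021 for Sparc, -0.043 for Col18a1 and -0.0083 for Smad7. Quantile normalization gave -0.0090 for Col6a2, 0.049 for Tgfb1 and -0.018 for Smad7. Cyclic loess gave -0.027 for Col6a2, 0.043 for Tgfb1 and -0.036 for Smad7. Array weights gave -0.059 for Col6a2, 0.016 for Col4a2, 0.00012 for Lama5, 0.046 for Tgfb1 and -0.066 for Smad7. With 1 array left out the differences ran from -0.073 to 0.15 for Col1a2, -0.0040 to 0.33 for Col3a1, -0.10 to 0.23 for Col5a1, -0.049 to 0.13 for Col6a2, -0.10 to 0.15 for Sparc, -0.090 to 0.31 for Bgn, -0.50 to 0.12 for Postn and -0.034 to 0.25 for Lox. They ran from -0.19 to 0.012 for Col4a1, -0.20 to 0.077 for Col4a2, -0.044 to 0.22 for Col4a3, -0.10 to 0.037 for Col15a1, -0.13 to 0.19 for Col18a1, -0.14 to 0.028 for Lama5, -0.28 to 0.16 for Lamc1, -0.24 to 0.12 for Nid1 and -0.023 to 0.12 for Hspg2. They ran from -0.13 to 0.16 for Tgfb1, -0.12 to 0.31 for Thbs1, -0.20 to 0.028 for Itgav, -0.21 to 0.078 for Smad3, -0.071 to 0.14 for Smad7, -0.37 to 0.020 for Mmp7 and -0.24 to 0.13 for Bmp7. Of the 19 genes that kept their sign, the differences ran over all settings from 0.044 to 0.24 for Col1a1, 0.11 to 0.31 for Col4a4, 0.13 to 0.50 for Tgfb2, 0.018 to 0.22 for Tgfb3, -0.20 to -0.055 for Itgb6, -0.27 to -0.11 for Smad2, -0.30 to -0.039 for Tgfbi, 0.039 to 0.25 for Mmp2 and -0.28 to -0.0013 for Mmp14. Signals of Mmp7 and of Chrdl1 in the vehicle arm lie near the negative controls, which limits the size of difference they can show.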
